A study of Homo sapiens with 12 samples.

Results

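The matrix metalloproteinases (MMPs) and their tissue inhibitors (TIMPs) described here are 10 human genes, taken by exact symbol from a table of 26485 genes: MMP1, MMP2, MMP3, MMP7, MMP9, MMP10, MMP13, MMP14, TIMP1 and TIMP3. RNA was sequenced from COV362 and PEO1, established cell lines of high-grade serous ovarian carcinoma grown in medium with serum and insulin. The groups were COV362 with 20 nM prexasertib, COV362 with DMSO vehicle, PEO1 with 20 nM prexasertib and PEO1 with DMSO vehicle, with 3 libraries each, lettered A, B and C. Prexasertib inhibits the checkpoint kinases CHK1 and CHK2, and the labels do not give the treatment time. All cells were labelled as parental, with no engineered allele recorded, and each line is a culture of tumour cells without stroma. Nothing in the labels says that the replicates were separate cultures, so the p-values measure only the spread between these libraries.

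MMPs are zinc-dependent endopeptidases, mostly secreted as inactive proenzymes and activated outside the cell when an inhibitory propeptide is displaced or cut off. Together they cleave the main proteins of the extracellular matrix, and TIMPs block them by occupying the active site. In ovarian carcinoma both tumour and stromal cells can make these proteins, which have been studied in peritoneal invasion and in matrix remodelling.

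Levels are library-scaled counts (CPM) with edgeR's trimmed mean of M-values factors (TMM), and levels of different genes are set side by side only as CPM per kb of exon. The libraries held 9390790 to 18262805 counts, where 3 counts correspond to 0.163 to 0.363 CPM. Log2 CPM values of libraries of the same group correlated at 0.959 to 0.989 across genes. Carcinoma markers were found at 1 CPM or more for 7 of 7 genes in all 4 groups, and the leukocyte marker MS4A1 and the fibroblast marker LUM had 0 counts in every library. Fibroblast markers summed to 58.4 to 77.2 CPM in PEO1 prexasertib libraries, against 216 to 291 CPM in PEO1 DMSO libraries, most of it THY1. In COV362 the same sum was 6.88 to 11.7 CPM with prexasertib and 9.96 to 19.7 CPM with DMSO. The 6 leukocyte markers summed to 49.9 to 60.1 CPM in COV362 prexasertib libraries, against 31.0 to 42.2 CPM in COV362 DMSO libraries. In PEO1 that sum was 32.4 to 39.3 CPM with prexasertib and 37.7 to 42.5 CPM with DMSO. Most of it was CD68, whose group means were 34.3 to 53.3 CPM, and the part of these markers in the members' values was not tested.

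All MMP members share a catalytic site in which 3 histidines hold the zinc ion. The coding sequence of that site is printed because it shows how alike the members are at the active centre, and because the closest pair, MMP3 and MMP10, have to be told apart by their reads. The sequences come from GENCODE v29 transcripts on GRCh38, are given 5′ to 3′ on the gene's strand, and carry the 3 histidine codons in capitals.
MMP1, chr11:102795549-102795581, minus strand: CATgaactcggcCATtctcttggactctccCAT
MMP13, chr11:102952115-102952147, minus strand: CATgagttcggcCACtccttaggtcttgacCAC
MMP2, chr16:55491827-55491859, plus strand: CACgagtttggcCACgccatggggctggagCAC
MMP9, chr20:46012453-46012485, plus strand: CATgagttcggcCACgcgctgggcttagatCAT
MMP3, chr11:102840535-102840567, minus strand: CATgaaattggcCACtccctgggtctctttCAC
MMP10, chr11:102776718-102776750, minus strand: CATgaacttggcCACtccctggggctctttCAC
MMP7, chr11:102523343-102523375, minus strand: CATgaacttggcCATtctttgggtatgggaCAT
MMP14, chr14:22843283-22843315, plus strand: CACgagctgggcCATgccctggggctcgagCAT
Each site lies within a single exon, exon 8 in MMP2 and MMP9 and exon 5 in the other members. Of its 33 bases, 17 were identical in all 8 MMP members, and 31 were identical between MMP3 and MMP10. These stromelysins had 85.2% identical bases over their aligned coding sequences. Of all 50-base windows along their transcripts, 2.88% (MMP3) and 3.36% (MMP10) occur in the other gene as well, so over those windows a read could come from either gene.

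Five-prime windows were at hand for 5 of the 10 members (MMP7, MMP10, MMP14, TIMP1 and TIMP3), from RefSeq on GRCh38.p14. The 250 bases before the start are printed for the inhibitors, which changed with the drug in PEO1, and for MMP7 and MMP10, which carry an AP-1 motif at the same distance from the start. Capitals mark matches, on either strand, to the AP-1 motif TGANTCA and the PEA3/ETS motif AGGAAG, which do not overlap here.
MMP7, chr11:102530748-102530997, minus strand: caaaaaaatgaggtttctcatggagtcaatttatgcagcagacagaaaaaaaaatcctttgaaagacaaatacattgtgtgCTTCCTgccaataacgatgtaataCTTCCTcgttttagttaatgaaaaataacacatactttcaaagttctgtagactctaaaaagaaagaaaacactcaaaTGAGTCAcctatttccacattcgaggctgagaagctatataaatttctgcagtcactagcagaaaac
MMP10, chr11:102780629-102780878, minus strand: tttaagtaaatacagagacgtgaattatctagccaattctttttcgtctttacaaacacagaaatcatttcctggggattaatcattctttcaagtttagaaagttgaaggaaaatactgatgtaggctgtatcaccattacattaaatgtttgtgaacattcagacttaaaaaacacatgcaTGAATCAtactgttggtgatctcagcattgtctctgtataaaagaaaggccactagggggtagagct
TIMP1, chrX:47582186-47582435, plus strand: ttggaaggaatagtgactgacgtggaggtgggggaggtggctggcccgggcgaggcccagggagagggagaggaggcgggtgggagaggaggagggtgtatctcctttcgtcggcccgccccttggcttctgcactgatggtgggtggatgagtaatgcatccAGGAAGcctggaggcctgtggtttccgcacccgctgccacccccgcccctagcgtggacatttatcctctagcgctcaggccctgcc
TIMP3, chr22:32801455-32801704, plus strand: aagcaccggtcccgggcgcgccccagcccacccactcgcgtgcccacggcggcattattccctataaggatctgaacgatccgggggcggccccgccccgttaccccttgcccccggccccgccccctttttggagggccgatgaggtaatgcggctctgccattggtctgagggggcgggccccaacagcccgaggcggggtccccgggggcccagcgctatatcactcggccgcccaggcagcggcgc
MMP7 and MMP10 each had 1 AP-1 match, at bases -67 to -61 from the start. The motif occurs in 7.709% of the 35116 windows of 300 bases in the table, which also include the 50 bases after the start. MMP7 had PEA3/ETS matches at -169 to -164 and at -145 to -140, and TIMP1 had 1 at -87 to -82, for a motif found in 33.648% of windows. A TATA box, TATAAA, began at -30 in MMP7 and at -31 in MMP10 and is present in 11.53% of windows. TIMP3 and MMP14 held neither these motifs nor the NF-kB motif (6.518% of windows) nor CRE (TGACGTCA, 1.848% of windows). The RefSeq start of TIMP1, TIMP3 and MMP14 lies apart from the outermost exon of the counts table, and that of MMP7 and MMP10 is the same.

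The lines expressed different members. The gelatinase MMP2 made up most of the MMP level in COV362, and the stromelysin MMP3 most of it in PEO1 treated with prexasertib. TIMP1 had the highest level per kb of all members in all 4 groups. Under the filter for low counts 9 of the 10 members were tested, and MMP14 was not. MMP2, MMP7, MMP10 and MMP13 passed through the COV362 libraries and MMP3 and MMP9 through the PEO1 libraries, so a count of members that differ between the lines does not bear on the family as a whole. MMP3 reached the cutoff in 3 PEO1 prexasertib, 2 PEO1 DMSO and 0 COV362 libraries. It thus passed only with the treated libraries where it is high, and a count of members changed in PEO1 does not bear on the family either.

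In order of level, COV362 prexasertib libraries had TIMP1 at 170 ± 47.6, MMP2 at 34.4 ± 8.15 and TIMP3 at 12.7 ± 0.715 CPM per kb (SD, n = 3). COV362 DMSO libraries had the same order, with TIMP1 at 155 ± 44.0, MMP2 at 59.3 ± 5.34 and TIMP3 at 19.7 ± 2.38 CPM per kb (SD, n = 3). These 3 did not overlap with each other in either group, while MMP7, MMP13, MMP10 and MMP1 followed between 1.29 and 3.89 CPM per kb on average and overlapped from each to the next. MMP9, MMP3 and MMP14 were lowest, at 0.264 CPM per kb or less.

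PEO1 prexasertib libraries had TIMP1 at 99.6 ± 13.9, MMP3 at 15.5 ± 0.560 and TIMP3 at 1.68 ± 0.429 CPM per kb (SD, n = 3), with no overlap among them. In PEO1 DMSO libraries TIMP1 stood at 159 ± 15.2 CPM per kb (SD, n = 3), and every other member was under 1 CPM per kb. There TIMP3, MMP9, MMP7, MMP3 and MMP1 overlapped from each to the next. MMP2 and MMP13 had 0 counts in all 3 PEO1 DMSO libraries, where 3 counts over the group would be 0.0577 CPM.

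**Figure D1:**
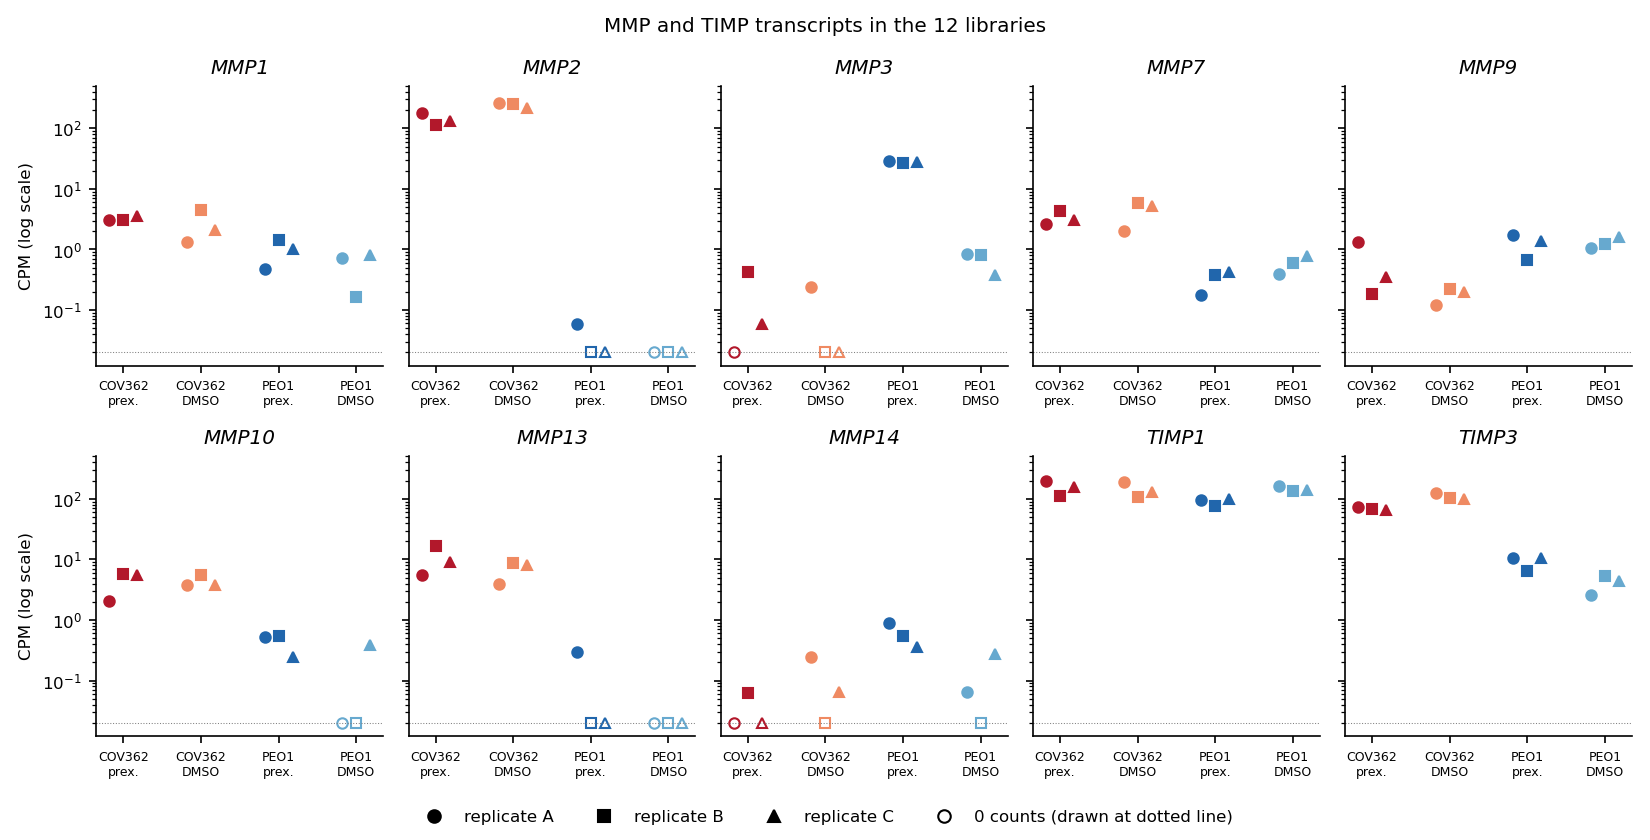
Level of each of the 10 members in each of the 12 libraries, as CPM on a log scale, with prexasertib libraries left of DMSO libraries for each line, marker shapes for the replicate letters and open markers for 0 counts. MMP3 in PEO1 sits at 27.2 to 29.3 CPM with prexasertib and at 0.385 to 0.848 CPM with DMSO, and MMP2 is found in COV362 alone but for 1 count.

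Prexasertib changed 3 of the 9 tested members in PEO1 (33.3%), against a background of 29.3% of all 14498 tested genes called there (14.7% higher and 14.6% lower). MMP3 and TIMP3 rose and TIMP1 fell. Because MMP3 passed the filter only with the treated PEO1 libraries, the share of members is a description alone. Calls are genes with an adjusted p under 0.05 (Benjamini-Hochberg, over all tested genes) in edgeR's quasi-likelihood test, and standard errors (SE) come from the same fit. The same 3 members were those whose groups did not overlap, which held for 50.1% of all tested genes. The median log2 fold change of the 9 members was 1.16, beside 0.01 for all tested genes. It was 0.79 with MMP13, which had 0 counts under DMSO, set at its bound. MMP2, with 1 count in all under prexasertib and 0 under DMSO, kept its fitted value in both medians. Both medians also hold MMP3, and MMP2 and MMP13 had too few counts for a fold change. The medians are thus a description alone, like the share of members. The fitted changes of MMP7, MMP9 and TIMP1 were negative, and those of the other tested members were positive. In COV362 0 of 9 members were called, against a background of 0.828% (0.607% higher and 0.221% lower). With the replicate block, 2 of the 9 (MMP2 and TIMP3, both lower) and 1977 genes in all were called. The COV362 libraries followed the letters for A and B, and weakly for C. The median of the 9 members without the block was 0.14, beside -0.01 for all tested genes. In PEO1 the 7 carcinoma markers summed to 3418 to 4011 CPM with prexasertib and 6529 to 7644 CPM with DMSO, and the fibroblast marker THY1 fell to 65.6 CPM with prexasertib, against 248 CPM with DMSO. Of the 3 other fibroblast markers tested, PDGFRA was called higher, at 0.212 CPM with prexasertib and 0 counts with DMSO, and FAP and PDGFRB were not called. The part of these markers in the changes of the members was not tested.

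**Figure D2:**
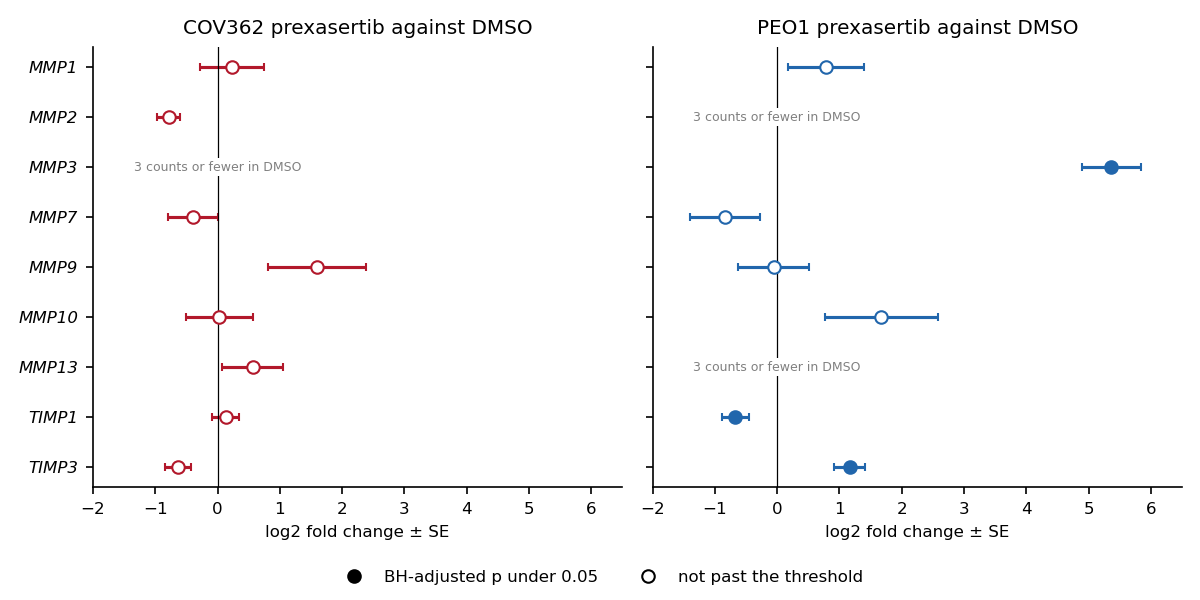
Log2 fold change of each tested member, prexasertib against DMSO, in COV362 (left) and PEO1 (right), with the SE of the edgeR fit as bars and called members filled (adjusted p under 0.05). In PEO1 MMP3 and TIMP3 lie above 0 and TIMP1 below it, at 5.37, 1.16 and -0.67, while no COV362 point was called and members with 3 counts or fewer under DMSO have no point.

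Among the stromelysins, MMP3 cleaves matrix proteins other than fibrillar collagen and activates other pro-MMPs. The PEO1 prexasertib libraries held 499, 496 and 468 MMP3 counts, against 13, 15 and 7 in the PEO1 DMSO libraries. As levels these were 29.3, 27.2 and 28.2 CPM with prexasertib and 0.848, 0.814 and 0.385 CPM with DMSO. The 3 treated libraries lay close together and far above the vehicle libraries, 41.4-fold on the means, with a log2 fold change of 5.37 ± 0.47 (SE; edgeR adjusted p = 5.64e-06).

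COV362 held 0, 7 and 1 MMP3 counts with prexasertib and 2, 0 and 0 with DMSO. At this depth no level of MMP3 could be told from the 3-count floor in most COV362 libraries. The difference between the lines in the MMP3 change rests on these few counts and was 3.68 ± 2.02 (SE; edgeR adjusted p = 0.272). DESeq2 (adjusted p = 0.0341) and limma-voom (adjusted p = 0.0431) called this difference.

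MMP10, the other stromelysin of the pair, was at 2.05, 5.80 and 5.47 CPM in COV362 prexasertib libraries, against 3.75, 5.47 and 3.84 CPM in COV362 DMSO libraries. The groups overlapped and the log2 difference was 0.03 ± 0.54 (SE; edgeR adjusted p = 1). PEO1 held 9, 10 and 4 MMP10 counts with prexasertib and 0, 0 and 7 with DMSO. The single DMSO library C with counts lay among the treated ones, and the log2 fold change was 1.67 ± 0.91 (SE; edgeR adjusted p = 0.184). Without that library MMP10 was called (adjusted p = 0.0159). The 468 to 499 MMP3 counts of treated PEO1 stood beside at most 10 MMP10 counts in the same libraries.

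Of the collagenases, which open the triple helix of fibrillar collagen, MMP1 was at 0.470, 1.43 and 1.03 CPM in PEO1 prexasertib libraries and at 0.718, 0.163 and 0.824 CPM in PEO1 DMSO libraries. In COV362 it was at 3.03, 3.08 and 3.53 CPM with prexasertib and at 1.33, 4.54 and 2.08 CPM with DMSO. Both pairs of groups overlapped, with log2 differences of 0.79 ± 0.61 in PEO1 and 0.23 ± 0.52 in COV362 (SE; edgeR adjusted p = 0.359 and 0.923).

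MMP13 was at 5.48, 16.5 and 9.0 CPM in COV362 prexasertib libraries, against 3.99, 8.76 and 8.01 CPM in COV362 DMSO libraries. Library B was highest in each group, the groups overlapped, and the log2 difference was 0.56 ± 0.49 (SE; edgeR adjusted p = 0.721). PEO1 held 5 MMP13 counts, all in prexasertib library A, and 0 with DMSO.

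Of the gelatinases, which degrade denatured collagen and basement membrane collagen, MMP2 was at 179, 114 and 133 CPM in COV362 prexasertib libraries, against 263, 251 and 220 CPM in COV362 DMSO libraries. All treated libraries lay below all vehicle libraries, with means of 142 ± 33.6 and 245 ± 22 CPM (SD, n = 3 each) and a log2 difference of -0.79 ± 0.18 (SE). This missed the threshold with an edgeR adjusted p of 0.0716. With the replicate letter as a block, which letter C followed weakly in COV362, the adjusted p was 5.14e-07. Leaving out the prexasertib library A, the highest of its group, brought it to 0.0159. Endothelial markers were found at 1 CPM or more for 4 of 4 genes in both COV362 groups. They summed to 55.0 to 56.0 CPM with prexasertib and 80.7 to 96.5 CPM with DMSO. Most of that sum was CDH5, with means of 45.2 and 73.8 CPM, and 0 of the 4 were called with prexasertib in COV362. The part of these markers in the MMP2 and TIMP3 values was not tested. In bulk RNA, fewer cells with MMP2 and less MMP2 RNA per cell cannot be told apart.

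Without overlap in COV362 were 2 of the 9 members, MMP2 and TIMP3, against 14.5% of all tested genes. PEO1 had 1 MMP2 count in all 3 prexasertib libraries together and 0 with DMSO. The other gelatinase, MMP9, stood at 1.70, 0.659 and 1.39 CPM in PEO1 prexasertib libraries, against 1.04, 1.25 and 1.59 CPM in PEO1 DMSO libraries. These overlapped, and the log2 difference was -0.06 ± 0.57 (SE; edgeR adjusted p = 0.955). In COV362 the values were 1.31, 0.185 and 0.353 CPM with prexasertib and 0.121, 0.219 and 0.195 CPM with DMSO. Library A alone was high among the treated ones, and the log2 difference was 1.60 ± 0.78 (SE; edgeR adjusted p = 0.429).

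Matrilysin, MMP7, lacks the haemopexin-like domain of the other MMP members and is made mainly by epithelial cells. It was at 2.62, 4.38 and 3.12 CPM in COV362 prexasertib libraries, against 2.06, 5.86 and 5.15 CPM in COV362 DMSO libraries. PEO1 had 0.176, 0.384 and 0.422 CPM with prexasertib and 0.391, 0.597 and 0.769 CPM with DMSO. Both pairs overlapped, and the log2 differences were -0.39 ± 0.40 in COV362 and -0.84 ± 0.56 in PEO1 (SE; edgeR adjusted p = 0.774 and 0.282).

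MMP14, a membrane-anchored collagenase that also activates pro-MMP2, had few counts in every library. It had 0, 1 and 0 counts in COV362 prexasertib libraries and 2, 0 and 1 in COV362 DMSO libraries. PEO1 held 15, 10 and 6 counts with prexasertib and 1, 0 and 5 with DMSO, so the treated libraries were the higher ones by a margin of 1 count. With these counts it was not tested.

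The 2 inhibitor members moved in opposite directions in PEO1. TIMP1, a secreted inhibitor of most soluble MMPs, was at 96.4, 76.7 and 101 CPM in PEO1 prexasertib libraries, against 161, 137 and 138 CPM in PEO1 DMSO libraries. Every treated library was below every vehicle library, at 0.628 times the mean, with a log2 fold change of -0.67 ± 0.22 (SE; edgeR adjusted p = 0.0321). The call was lost without the DMSO library A (adjusted p = 0.0727), without the prexasertib library B (0.0898) and without all C libraries (0.153).

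COV362 had TIMP1 at 200, 113 and 154 CPM with prexasertib and at 187, 109 and 130 CPM with DMSO. The letters ranked the same way in both groups, A highest and B lowest, and the log2 difference was 0.14 ± 0.22 (SE; edgeR adjusted p = 0.877). In all 4 groups the B library had the lowest TIMP1, whose exons span 916 bases. Within groups the A libraries leaned toward short genes and the B libraries toward long ones, with rank correlations between exon length and deviation from the group mean of -0.41 to -0.35 for A and 0.13 to 0.44 for B. For the C libraries they were -0.054 to 0.32, and in PEO1 DMSO library C (0.32) lay above library B (0.13). The part of this lean in the TIMP1 values was not tested, and without the A libraries the TIMP1 change in PEO1 was -0.63 (adjusted p = 0.00898). The difference between the lines in the TIMP1 change was -0.81 ± 0.31 (SE; edgeR adjusted p = 0.125). It was called without the A libraries (adjusted p = 0.0484), without the COV362 DMSO library A (0.0361) and without the COV362 prexasertib library B (0.0385). With the replicate block it was called too (adjusted p = 6.70e-06), but that block also uses letters within PEO1, where they did not pair the libraries.

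TIMP3, which binds to the matrix and also inhibits ADAM and ADAMTS proteases, was at 10.6, 6.48 and 10.5 CPM in PEO1 prexasertib libraries, against 2.54, 5.32 and 4.34 CPM in PEO1 DMSO libraries. The groups did not overlap, though treated library B came near vehicle library B. The mean was 2.26-fold higher with prexasertib, with a log2 fold change of 1.16 ± 0.24 (SE; edgeR adjusted p = 0.00312). Without the C libraries it was 1.06 (adjusted p = 0.115).

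In COV362 TIMP3 was at 73.9, 68.9 and 66.2 CPM with prexasertib and at 123, 103 and 98.4 CPM with DMSO. All treated libraries were lower than all vehicle libraries, with a log2 difference of -0.63 ± 0.21 (SE; edgeR adjusted p = 0.212). With the replicate letter as a block the adjusted p was 0.000938.

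Of the 9 members, TIMP3 was the 1 whose difference between the lines in the prexasertib change was called, against a background of 6.1% of tested genes (3.14% with a higher and 2.97% with a lower change in PEO1). The PEO1 change exceeded the COV362 change by 1.79 ± 0.32 on the log2 scale (SE; edgeR adjusted p = 0.00828), and without the C libraries the adjusted p was 0.296. With prexasertib TIMP3 averaged 9.20 ± 2.36 CPM in PEO1 and 69.7 ± 3.92 CPM in COV362, against 4.07 ± 1.41 CPM in PEO1 and 108 ± 13.1 CPM in COV362 with DMSO (SD, n = 3 each). It stood lower in every PEO1 library than in any COV362 library.

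**Figure D3:**
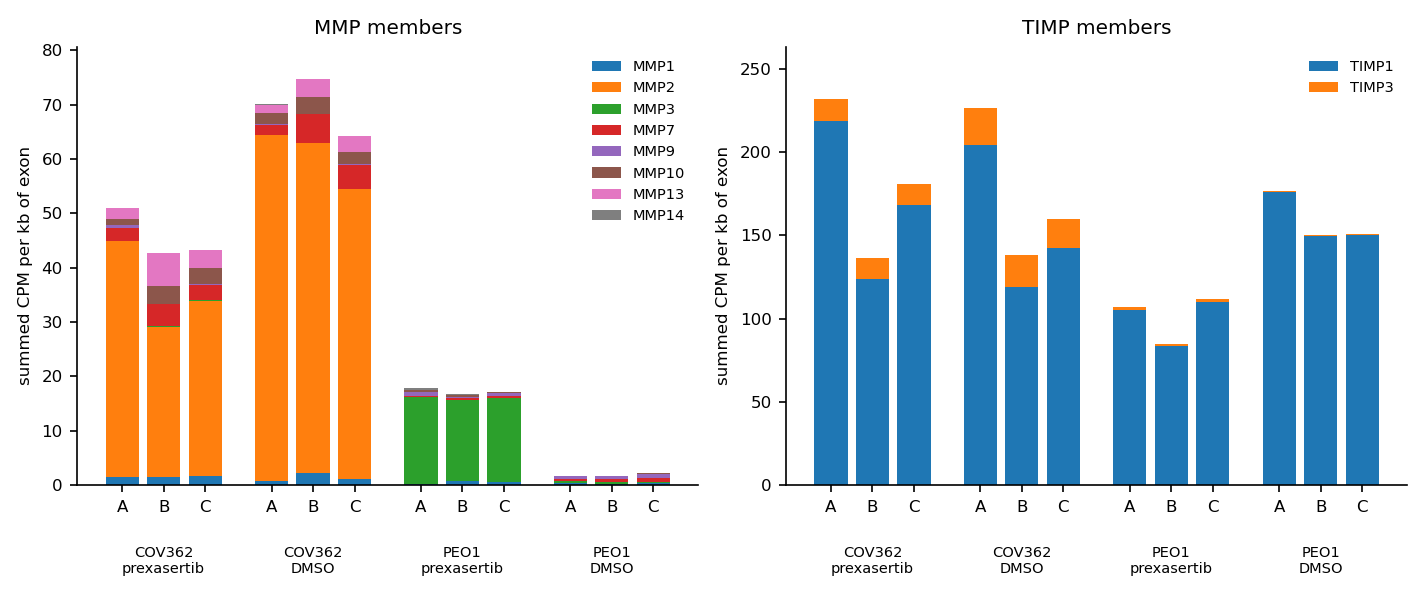
Summed level of the 8 MMP members and of the 2 TIMP members in each library, as stacked bars of CPM per kb of exon coloured by gene, prexasertib left of DMSO for each line. The MMP sum of PEO1 is 16.7 to 17.8 with prexasertib and 1.59 to 2.28 with DMSO.

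Summed per kb, the 8 MMP members came to 17.2 ± 0.560 CPM per kb in PEO1 prexasertib libraries, against 1.83 ± 0.385 in PEO1 DMSO libraries (SD, n = 3 each). MMP3 made up 89.8% of the sum with prexasertib and 20.4% with DMSO, where MMP9 (30.3%) and MMP7 (28.6%) were the larger parts. In COV362 the sum was 45.7 ± 4.61 CPM per kb with prexasertib and 69.7 ± 5.23 with DMSO (SD, n = 3 each), and MMP2 made up 75.3% and 85.1% of it. TIMP1 and TIMP3 together came to 101 ± 14.4 CPM per kb in PEO1 with prexasertib and 159 ± 14.9 with DMSO (SD, n = 3 each). In COV362 they came to 183 ± 48.0 with prexasertib and 175 ± 46.1 with DMSO (SD, n = 3 each). Per kb, the MMP sum stayed below the TIMP sum in all 12 libraries. Without scaling to exon length it lay above the TIMP sum in COV362 DMSO library B (276 against 212 CPM) and library C (240 against 229 CPM). In the other libraries it was below on that scale too.

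With vehicle alone the lines differed in 8 of the 9 tested members, against a background of 57.7% of all tested genes (29.1% higher and 28.6% lower). Of these, 2 were higher in PEO1 DMSO libraries and 6 were lower. The same 8 did not overlap between lines, which held for 63.5% of tested genes. MMP2 was at least 4235-fold lower in PEO1 DMSO libraries and MMP13 at least 120-fold lower, each bound taken at 3 counts over the PEO1 group (edgeR adjusted p = 1.50e-10 and 1.67e-05). Fibroblasts also make MMP2, and their markers did not differ between the lines in 1 direction. THY1 and FAP were called higher in PEO1 DMSO libraries, while PDGFRA (0 counts in PEO1, against 0.754 CPM in COV362) and PDGFRB (0.382 CPM in PEO1, against 3.33 CPM in COV362) were called lower. All 4 endothelial markers were called lower in PEO1 DMSO libraries. They summed to 6.49 to 7.57 CPM there and to 80.7 to 96.5 CPM in COV362 DMSO libraries. Each line is a culture without stroma, and the part of these markers in the MMP2 and TIMP3 values was not tested.

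TIMP3 averaged 4.07 CPM in PEO1 DMSO libraries, 26.5-fold below the 108 CPM of COV362 DMSO libraries, with a log2 difference of -4.72 ± 0.26 (SE; edgeR adjusted p = 3.30e-09). MMP10 (-4.96 ± 0.76), MMP7 (-2.89 ± 0.47) and MMP1 (-2.26 ± 0.59) were lower in PEO1 as well on the log2 scale (SE; edgeR adjusted p = 8.00e-05, 0.000114 and 0.00443). MMP9 was higher in PEO1, by 2.74 ± 0.73 (SE; edgeR adjusted p = 0.00535). MMP3 was higher too (edgeR adjusted p = 0.00552), with 35 counts in PEO1 DMSO libraries and 2 in COV362 DMSO libraries, a depth-scaled ratio of 14.1 with an exact 95% binomial interval of 3.63 to 121 that covers counting error only. Both COV362 counts were in library A, the ratio of the group means in CPM was 8.46, and the fitted log2 difference was 2.86 to 6.51 over the alternatives. Without the C libraries both calls were lost (adjusted p = 0.0889 for MMP9 and 0.0501 for MMP3). TIMP1 did not differ beyond the spread, at 0.03 ± 0.22 (SE; edgeR adjusted p = 0.906).

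The counts table places 5 members, MMP7, MMP10, MMP1, MMP3 and MMP13, in a cluster of 9 MMP genes at chr11:102520508-102955734 on hg38, a span of 435.2 kb in which all 5 lie on the minus strand. Going up the chromosome, MMP7 lies at 102520508-102530747, MMP10 at 102770502-102780628, MMP1 at 102789910-102798235, MMP3 at 102835797-102843611 and MMP13 at 102942992-102955734. Of these 5 members, MMP3 was called with prexasertib in PEO1 and the other 4 were not. Its nearest MMP genes on the chromosome are MMP1, which was not called, and MMP12, which was called too (edgeR adjusted p = 0.0249), on 10 counts in the 3 PEO1 prexasertib libraries and 0 with DMSO. Of 6 other genes beside the cluster, YAP1, BIRC3, BIRC2, TMEM123, DCUN1D5 and DYNC2H1, 0 were called with prexasertib in either line (list median 0.26 in PEO1 and -0.18 in COV362), and 3 were in COV362 with the replicate block, 1 higher and 2 lower. In PEO1 2 were called higher without the A libraries and 3 with the replicate block, whose letters did not pair the libraries there. Over all tested genes the shares called without the block were 29.3% in PEO1 and 0.828% in COV362. With the block 7446 genes were called in PEO1 and 1977 in COV362. The pseudogene WTAPP1 overlaps MMP1 by 150 exon bases on the opposite strand, which an unstranded library cannot tell apart, and had 2 counts in 1 library and 0 in the others.

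**Figure D4:**
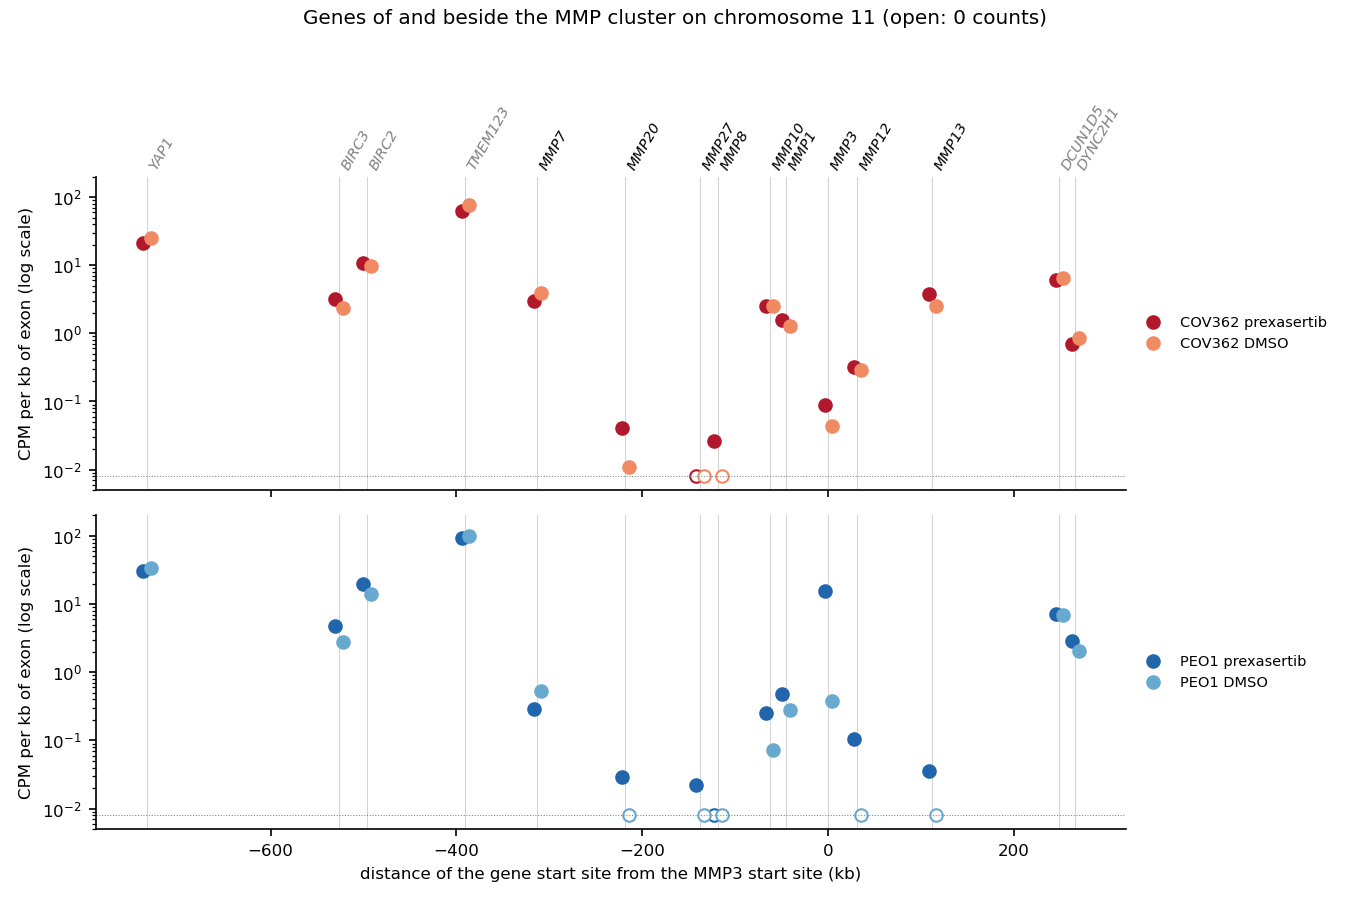
Mean level of the genes in and beside the chromosome 11 MMP cluster, as CPM per kb of exon on a log scale, against the distance of their start from that of MMP3 in kb, with prexasertib left of DMSO for each line and open markers for 0 counts. MMP3 in PEO1 with prexasertib stands at 15.5 CPM per kb, and MMP10 and MMP1 beside it at 0.25 and 0.474.

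The members elsewhere in the genome are MMP2 at chr16:55478830-55506691, MMP9 at chr20:46008908-46016561, MMP14 at chr14:22836533-22847599, TIMP1 at chrX:47582291-47586791 and TIMP3 at chr22:32800816-32863041, all on the plus strand. TIMP1 lies inside SYN1 and TIMP3 inside SYN3, on the opposite strand, with 0 shared exon bases in either pair.

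For the lists from here on, the shares over all tested genes are 29.3% called in PEO1 and 0.828% in COV362. With the replicate block 1977 of the 14498 tested genes were called in COV362. Of 15 other MMP genes 6 were tested, and in PEO1 1 rose and 0 fell (list median 0.38). That was MMP12, the macrophage elastase of the same cluster, with 4, 1 and 5 counts with prexasertib and 0 in all DMSO libraries, at least 3.41-fold higher (edgeR adjusted p = 0.0249). Leaving out any of 5 of the 6 PEO1 libraries, all but prexasertib library B, ended that call (adjusted p = 0.0608 to 0.0776). In COV362 0 of 6 were called (list median 0.10), and 1 rose with the replicate block.

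Of 5 further inhibitors 4 were tested. TIMP2, which with MMP14 also takes part in pro-MMP2 activation, fell to 488 CPM in PEO1 prexasertib libraries, against 844 CPM in PEO1 DMSO libraries, by 0.79 ± 0.11 on the log2 scale (SE; edgeR adjusted p = 0.000152). Its change in PEO1 was lower than in COV362 by a tested difference of -0.56 ± 0.15 (SE; edgeR adjusted p = 0.0436). Per kb TIMP2 averaged 133 CPM with prexasertib and 231 CPM with DMSO in PEO1, above TIMP1 at 99.6 and 159. In COV362 it averaged 41.0 and 48.2 CPM per kb, below TIMP1 at 170 and 155. TIMP2 is not a member and is not in the TIMP sum. TFPI2, a Kunitz-type serine protease inhibitor of the matrix, rose to 98.8 CPM in PEO1 prexasertib libraries, against 50.7 CPM in PEO1 DMSO libraries, with a log2 fold change of 0.96 ± 0.22 (SE; edgeR adjusted p = 0.00552). Without the C libraries the TFPI2 call was lost (adjusted p = 0.124). The call of the TIMP2 difference was lost without any of 10 single libraries of the 12 (adjusted p up to 0.101) and without all C libraries (0.365). In COV362 0 of the 4 were called (list median -0.24, and 0.14 in PEO1), and with the replicate block 1 rose and 1 fell.

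Genes that act before MMPs, in proenzyme activation, numbered 11 with 10 tested. In PEO1 1 rose and 4 fell (list median -0.36), and in COV362 0 were called (list median 0.19), with 2 rising under the replicate block. SERPINB2, an inhibitor of plasminogen activators, averaged 0.833 CPM in PEO1 prexasertib libraries and had 0 counts with DMSO, at least 14.4-fold higher on the mean (edgeR adjusted p = 0.00816). The treated libraries were uneven, from 0.241 to 1.82 CPM, with an SD of 0.860 CPM (n = 3) that exceeds the SERPINB2 mean. PCSK7, a proprotein convertase, fell to 24.4 CPM in PEO1 prexasertib libraries, against 41.0 CPM in PEO1 DMSO libraries (edgeR adjusted p = 0.00592). Both calls were lost without the C libraries (adjusted p = 0.0684 for SERPINB2 and 0.0553 for PCSK7). The other 3 that fell were FURIN, PLAU and BSG.

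Of the related ADAM and ADAMTS proteases 13 of 15 were tested, and in PEO1 2 rose and 3 fell (list median 0.10). ADAMTS6 averaged 2.28 CPM in PEO1 prexasertib libraries and 0.116 CPM in PEO1 DMSO libraries, a log2 fold change of 4.22 ± 0.64, and ADAMTS15 averaged 6.79 and 27.0 CPM in the same groups, a log2 fold change of -1.99 ± 0.22 (SE; edgeR adjusted p = 0.000396 and 3.04e-05). In COV362 0 were called (list median -0.22), and with the replicate block 1 rose and 3 fell.

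AP-1 factors, dimers of FOS, JUN and ATF proteins, are known to act on many MMP promoters. Of 8 AP-1 subunits, all tested, 4 rose in PEO1 (list median 0.93) and 3 in COV362 (list median 0.38), and 0 fell. With the replicate block 5 rose in COV362, and 5 rose and 2 fell in PEO1, where the letters did not pair the libraries. Among the subunits not called in PEO1 without the block, JUNB and FOSL1 averaged lower with prexasertib and FOSL2 and JUND higher. ATF3 averaged 224 CPM in PEO1 prexasertib libraries and 13.5 CPM in PEO1 DMSO libraries, and 92.8 CPM in COV362 prexasertib libraries and 13.6 CPM in COV362 DMSO libraries. FOS averaged 38.0 CPM in PEO1 prexasertib libraries and 2.72 CPM in PEO1 DMSO libraries, and 4.18 CPM in COV362 prexasertib libraries and 1.26 CPM in COV362 DMSO libraries. Both changes were larger in PEO1, ATF3 by 1.27 ± 0.22 and FOS by 2.09 ± 0.37 on the log2 scale (SE; edgeR adjusted p = 0.00680 and 0.00739). Without the C libraries neither difference was called (adjusted p = 0.300 for ATF3 and 0.314 for FOS). The FOS change in COV362 was not called without the DMSO library B (adjusted p = 0.0599) or without all C libraries (0.404). MMP7 and MMP10, whose windows hold the AP-1 motif, were called in neither line. In PEO1 both had few counts, MMP10 23 with prexasertib and 7 with DMSO, and MMP7 17 and 31. No window was at hand for MMP3, which rose in PEO1, nor for MMP1, MMP2, MMP9 and MMP13. A link between the motif and the changes was not tested.

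Of 10 ETS factors 9 were tested, and 2 rose and 2 fell in PEO1 (list median 0.03) while 0 rose and 1 fell in COV362 (list median -0.09), or 2 with the replicate block. ERG fell to 3.53 CPM in PEO1 prexasertib libraries, against 8.61 CPM in PEO1 DMSO libraries (edgeR adjusted p = 0.00514), a call lost without the C libraries (adjusted p = 0.0745). EHF rose to 107 CPM in PEO1 prexasertib libraries, against 52.9 CPM in PEO1 DMSO libraries, and fell to 3.32 CPM in COV362 prexasertib libraries, against 8.52 CPM in COV362 DMSO libraries. The 2 changes differed by 2.38 ± 0.29 on the log2 scale (SE; edgeR adjusted p = 0.000915). The COV362 change of EHF was not called without the DMSO library B (adjusted p = 0.0581) or the prexasertib library C (0.0845). Without all C libraries EHF was called neither in PEO1 (adjusted p = 0.0714), nor in COV362 (0.598), nor for the difference between the lines (0.212).

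Of 10 NF-kB subunits and inflammatory inducers of MMPs 9 were tested, and 3 rose in each line with 0 falling (list median 0.50 in PEO1 and 0.89 in COV362). IL1A, a cytokine that induces stromelysin in fibroblasts, averaged 18.1 CPM in PEO1 prexasertib libraries and 1.88 CPM in PEO1 DMSO libraries, a log2 fold change of 3.26 ± 0.30 (SE; edgeR adjusted p = 7.62e-06). In COV362 it averaged 0.926 CPM with prexasertib and 0.160 CPM with DMSO (edgeR adjusted p = 0.0514). IL6 averaged 126 CPM in PEO1 prexasertib libraries and 35.4 CPM in PEO1 DMSO libraries, a log2 fold change of 1.83 ± 0.19 (SE; edgeR adjusted p = 2.49e-05). NFKB2 rose in both lines and RELB in COV362, where 5 of the 9 rose with the replicate block. The IL6 call in COV362 was lost without the DMSO library B (adjusted p = 0.0968), the prexasertib library C (0.0859) or all C libraries (0.481).

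Of 14 matrix substrates 10 were tested, and 2 rose and 2 fell in PEO1 (list median -0.09), while 0 were called in COV362 (list median -0.15), or 2 higher and 4 lower with the replicate block. The basement membrane collagen COL4A2 fell to 124 CPM in PEO1 prexasertib libraries, against 286 CPM in PEO1 DMSO libraries (edgeR adjusted p = 0.000364). LAMB3, a chain of laminin-332, rose to 135 CPM in PEO1 prexasertib libraries, against 61.0 CPM in PEO1 DMSO libraries (edgeR adjusted p = 0.00600), and without the C libraries it was not called (adjusted p = 0.129).

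The genes whose log2 CPM followed the called members most closely over the 12 libraries were ZCCHC7 (Pearson r = 0.988) and DBR1 (0.985) for MMP3, PPP1R14B (0.985) and GSTP1 (0.974) for TIMP1, and SPRY1 (0.992) and TFB1M (0.992) for TIMP3. The 12 points share 4 groups and the same libraries, so these values describe likeness of pattern only.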

How the data were processed

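The authors deposited 1 table of raw counts per gene, with exon positions and summed exon length per the file headers. STAR, featureCounts 1.4.6, Subread and build hg38 are named per the submitters' processing notes, with no role or order given. Libraries were made with a polyA-selecting, unstranded TruSeq kit per the labels' protocols. Members and lists were chosen with earlier results of these data known. Genes passing filterByExpr (minimum count 10, minimum total 15; 14498 genes) were fitted in edgeR 4.0.16 (R 4.3.3) with TMM scaling and a quasi-likelihood test on 4 group means (8 residual degrees of freedom), checked on simulated data. The simulated counts had no letter effect and no lean with exon length, so the check does not cover those. All members were described. Other genes named were the called other MMPs and inhibitors, the 2 called genes with the largest absolute change in PEO1 in each further list, the 2 genes most like each called member, and a few chosen after their values were seen (FURIN, PLAU, BSG, NFKB2, RELB and the cluster's neighbours). The letters A, B and C were checked as pairs, because the titles share them. Deviations from group means correlated at 0.410, 0.423 and 0.133 in COV362, all over 0.1. They correlated at 0.302, 0.171 and 0.0813 in PEO1, and at 0.350, 0.164 and 0.148 between DMSO groups. On the cut of 0.1 the letters were taken to pair libraries in COV362 and between the DMSO groups. Some pairs of unlike letters were higher, such as COV362 DMSO B with COV362 prexasertib C (0.138) and with PEO1 DMSO C (0.245). The pairing of letter C in COV362, and of B and C between DMSO groups, thus rests on weak values. Alternatives were DESeq2 1.42.0, limma-voom 3.58.1, RLE scaling, no filter, a replicate block, each line alone, stricter thresholds and leaving out libraries. Floors of 3 counts cover counting error only. Protein sequences were not used here.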

Additional observations from a re-analysis of the deposited data

Results flagged for a closer look

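The prexasertib change of TIMP3 differed between the lines by the tested difference itself, with PEO1 exceeding COV362 by 1.79 ± 0.32 on the log2 scale (SE; edgeR adjusted p = 0.00828). TIMP3 averaged 9.20 CPM in PEO1 prexasertib libraries and 4.07 CPM in PEO1 DMSO libraries, and 69.7 CPM in COV362 prexasertib libraries and 108 CPM in COV362 DMSO libraries (n = 3 each). All 3 treated PEO1 libraries were above all 3 vehicle libraries, and all 3 treated COV362 libraries were below theirs. Groups of 3 libraries were not searched for outlying libraries.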

How the results depend on the processing

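Over 457 recomputed member values, 419 kept their direction and side of the threshold, 14 gained a call, 7 lost one and 17 changed sign, all of the last uncalled. The cause of each shift was not tested. MMP3 in PEO1 was called in 14 of 14 alternatives (adjusted p 4.15e-46 to 0.00913). In COV362 1 member was called with DESeq2 (499 genes called), limma-voom, no filter on low counts, or without the A libraries (330 genes), namely MMP2, and 2 with the replicate block (1977 genes). Genes called in COV362 numbered 10 in that line fitted alone, 1 without the C libraries, 35 at an adjusted p under 0.01 and 16 with a 1.5-fold minimum. In PEO1 the block gave 7446 genes, with the same 3 members, but letter C did not deviate together there. PEO1 calls numbered 811 genes and 1 member (MMP3) without the C libraries, 2319 genes at an adjusted p under 0.01, and 1087 genes and 1 member with the 1.5-fold minimum. For the difference between lines, DESeq2 gave 1843 genes and 2 members, limma-voom and leaving out the A libraries 2 members each, the block 4906 genes and 2 members, the second being MMP3 with DESeq2 and limma-voom and TIMP1 with the other 2, the C libraries left out 2 genes and 0 members, the 1.5-fold minimum 83 genes and 0 members, and an adjusted p under 0.01 157 genes. Between DMSO groups 5391 genes were called without the C libraries and 5258 with the 1.5-fold minimum. Leaving out 1 library gave 27 to 128 genes and 0 to 1 members in COV362, and 328 to 1756 genes and 1 to 2 members for the difference. Uncalled log2 changes near 0 turned sign: in COV362 MMP10 was -0.063 with limma-voom, -0.029 with the block, -0.22 without the C libraries and -0.21 to 0.36 with 1 library left out, and MMP1 was -0.0056 without the A libraries and -0.052 to 0.88 with 1 left out. With 1 library left out TIMP1 gave -0.085 to 0.38 in COV362 and -0.12 to 0.28 between DMSO groups, MMP9 -0.40 to 0.20 in PEO1, and MMP1 -0.10 to 0.89 for the difference. Without the C libraries, an alternative chosen after seeing the data, 0 ETS factors and 0 activation genes were called in PEO1 and 0 NF-kB genes and 1 AP-1 subunit in COV362. MMP14, and MMP2 and MMP13 in PEO1, had too few counts for a fold change.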
